A study of Mus musculus with 15 samples.

Results

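Red blood cell miRNAs were followed in small RNA libraries of mouse lung. They are mmu-miR-451a, mmu-miR-144-3p and mmu-miR-144-5p, mmu-miR-486a-5p and mmu-miR-486a-3p, and the second copy of that gene, mmu-miR-486b-5p and mmu-miR-486b-3p, written below without the species prefix. These 7 mature miRNAs were taken by name from a table of 1424, with earlier results of these data known, so their share of calls is set beside that of all tested miRNAs as a description. The 15 libraries were made from whole lungs of C57BL/6 mice labelled as 11 weeks of age, either homozygous for the R213G form of extracellular superoxide dismutase (EC-SOD), an antioxidant enzyme of the extracellular space, or wild type (WT). The mice received a single intratracheal dose of bleomycin, a DNA-damaging drug that injures the lung (100 uL at 1 U/mL), or phosphate-buffered saline (PBS), and lungs were taken 7 days later. The groups were R213G bleomycin (4 libraries), R213G PBS (4), WT bleomycin (4) and WT PBS (3). Before freezing, blood was washed out of every lung with PBS injected into the right ventricle. No count of the red cells that remained was analysed here. Mice of both sexes were used, and the labels do not give the sex behind each library. Nothing in the labels says beyond their numbering that libraries of a group are separate mice, so the p-values measure the spread between these libraries.

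Red cell precursors switch on the miR-144 and miR-451a genes together under the factor GATA1, and mature red cells, which have no nucleus, still carry the finished miRNAs. The hairpin of miR-451a is too short for the enzyme Dicer and is instead cut by the slicer protein Ago2, whereas miR-144 is cut by Dicer and can yield a miRNA from either arm. The gene of miR-486 lies inside Ank1, which encodes a protein of the red cell membrane skeleton, and miR-486 is also made in striated muscle. In erythroid cells miR-451a is known to restrain 14-3-3 zeta, and miR-144 the oxidant-response factor Nrf2.

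Sequences were found in RefSeq (GRCm38.p6) for 3 of the 7 members, and they are shown because the sections below set the arms of miR-144 and miR-451a against each other. Capitals mark the seed, bases 2 to 8, which chooses the targets.
miR-451a, chr11:78073186-78073207, plus strand: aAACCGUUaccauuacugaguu
miR-144-3p, chr11:78073047-78073066, plus strand: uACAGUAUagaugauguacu
miR-144-5p, chr11:78073010-78073032, plus strand: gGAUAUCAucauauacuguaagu
The hairpins follow, with the mature miRNAs in capitals.
Mir451a, chr11:78073170-78073241: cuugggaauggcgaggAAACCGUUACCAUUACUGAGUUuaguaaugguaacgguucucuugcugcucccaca
Mir144, chr11:78073005-78073070: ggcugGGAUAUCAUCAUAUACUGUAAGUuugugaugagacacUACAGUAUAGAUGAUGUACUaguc
Mature miR-451a is a single run of 22 bases, positions 17 to 38 of its 72-base hairpin. The arms of miR-144 sit at positions 6 to 28 and 43 to 62 of a 66-base hairpin. The hairpins are 99 bases apart on the same strand. The end, not the start, of Eral1, a protein-coding gene on the opposite strand, lies 134 bases beyond Mir451a. None of the 3 seeds was shared with another of the 1199 tabulated miRNAs that have a RefSeq sequence, although miR-101a-3p has the same bases 2 to 7 as miR-144-3p. In the GENCODE annotation the miR-486a gene lies in an intron of Ank1 on chromosome 8, and the miR-486b gene overlaps it on the opposite strand.

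Values are log2 of 1 plus an equalized count, a read count brought to a common library size. That unit was inferred from the values, because no source used here states it. The library sums of these counts lay between 18087300 and 24759600 and are not read depths, which are unknown here. Tests covered the 818 miRNAs whose equalized count exceeded 5 in 3 or more libraries, and all 7 members passed that filter. The markers of lung were present, with smooth muscle miR-143-3p ranked 1 in every library, endothelial miR-126a-3p ranked between 8 and 13, and epithelial miR-200b-3p between 37 and 49, whereas liver miR-122-5p ranked between 246 and 601. The EC-SOD variant cannot be read from miRNA counts, so the genotype labels were not checked.

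The erythroid miRNAs spanned a wide range of abundance. The 7 members together made up 0.627 ± 0.348% (SD, n = 4) of the equalized counts in R213G bleomycin lungs, 1.25 ± 0.561% (SD, n = 4) in R213G PBS lungs, 0.260 ± 0.0386% (SD, n = 4) in WT bleomycin lungs and 1.20 ± 0.639% (SD, n = 3) in WT PBS lungs. That sum includes the copies miR-486a-5p and miR-486b-5p, which averaged 0.520% and 0.519% in R213G PBS lungs. Whether the same reads were counted for each copy is not known here, so the sum may hold some reads more than once. The most abundant were these 5p copies, which ranked between 22 and 78 in single libraries, followed by miR-451a, ranked between 43 and 108. The scarcest was miR-486b-3p, ranked between 225 and 432.

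**Figure D1:**
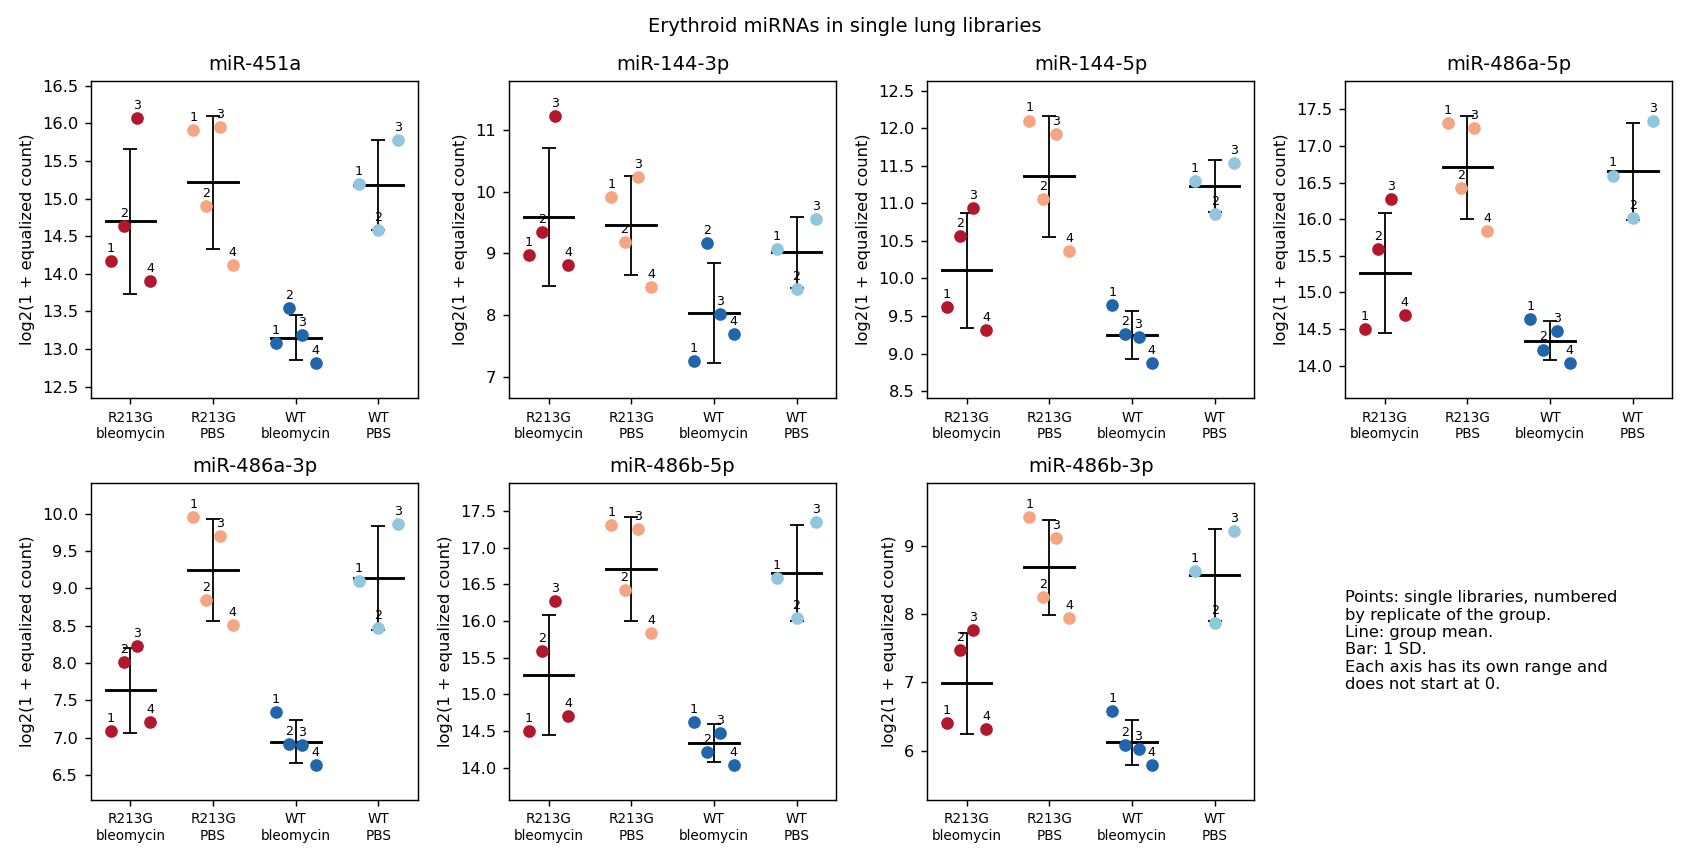
Level of each member (y axis, log2 of 1 plus the equalized count, not starting at 0) in single libraries of the 4 groups (x axis). Points carry the replicate number, the line is the group mean and the bar 1 SD. The 4 WT bleomycin libraries sit below the 3 WT PBS libraries for every member except miR-144-3p, and R213G bleomycin replicate 3 is the highest of its group for all 7.

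Bleomycin against PBS in WT mice asks how much of each red cell miRNA remains in the injured lung with the common EC-SOD. Of the 7 members, 6 fell and 1, miR-144-3p, did not pass (limma, Benjamini-Hochberg adjusted p under 0.05), where 10.3% of all tested miRNAs were called lower. The median log2 difference of the members was -2.20, and that of all tested miRNAs was 0.047. In whole lung, fewer red cells and less miRNA per red cell cannot be told apart, and other sources of the difference were not tested.

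The Ago2-cut miR-451a stood at 13.08, 13.54, 13.18 and 12.81 in WT bleomycin replicates 1 to 4, against 15.20, 14.58 and 15.78 in WT PBS replicates 1 to 3. All bleomycin libraries lay below all PBS libraries. The log2 difference was -2.03 ± 0.47 (SE, adjusted p = 0.00408), a ratio of 0.244. Its neighbour miR-144-5p had 9.64, 9.26, 9.22 and 8.87 in WT bleomycin lungs, against 11.30, 10.86 and 11.53 in WT PBS lungs. Here too the groups did not overlap, and the difference of -1.98 ± 0.40 (SE, adjusted p = 0.00156) was close to that of miR-451a. The other arm of the same hairpin, miR-144-3p, had 7.27, 9.17, 8.02 and 7.69 in WT bleomycin lungs, against 9.08, 8.42 and 9.56 in WT PBS lungs. These groups overlapped, because WT bleomycin replicate 2 was above 2 of the PBS libraries. The difference of miR-144-3p was -0.98 (95% confidence interval -2.15 to 0.18, adjusted p = 0.197).

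The Ank1-borne miR-486a-5p had 14.63, 14.22, 14.48 and 14.03 in WT bleomycin lungs, against 16.60, 16.02 and 17.34 in WT PBS lungs. The difference was -2.31 ± 0.41 (SE, adjusted p = 0.00061), with no overlap. Its scarce partner strand miR-486a-3p had 7.34, 6.92, 6.89 and 6.63 in WT bleomycin lungs, against 9.10, 8.47 and 9.86 in WT PBS lungs, a difference of -2.20 ± 0.37 (SE, adjusted p = 0.000444). The copies miR-486b-5p and miR-486b-3p fell too, with differences of -2.32 and -2.45. They are no separate results, since reads of near-identical copies cannot be assigned with certainty. The copies miR-486a-5p and miR-486b-5p never differed by more than 0.024 log2 in any library. In contrast miR-486a-3p exceeded miR-486b-3p by 0.46 to 0.90 log2 over the libraries. With the copies of each arm summed, the 5p arm differed by -2.32 and the 3p arm by -2.30. In all, 6 of the 7 members did not overlap between the WT groups, against 13.6% of tested miRNAs that were lower without overlap. In the authors' deposited table, 6 members had an unadjusted p-value under 0.05 by their parametric test in this comparison. By that test 0 had a q-value under 0.05, the lowest being 0.0597. The authors' Wilcoxon test gave those 6 members an unadjusted p of 0.0571, above 0.05, and its lowest q-value was 0.223.

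The same question was asked of the R213G mice. Of the 7 members, 5 fell and 2, miR-451a and miR-144-3p, did not pass, where 19.8% of all tested miRNAs were called lower. The median log2 difference of the members was -1.44, against 0.054 for all tested miRNAs. Every called member was miR-144-5p or a strand of miR-486, whose copies are no separate results. With the copies of each arm summed, 3 of 5 rows were called.

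In R213G bleomycin lungs miR-451a stood at 14.17, 14.63, 16.08 and 13.91, against 15.91, 14.91, 15.95 and 14.11 in R213G PBS lungs. The groups overlapped widely, since bleomycin replicate 3 was the highest of all 8 libraries and PBS replicate 4 was lower than 3 of the bleomycin libraries. The difference was -0.52 (95% confidence interval -1.45 to 0.41, adjusted p = 0.355). Without R213G bleomycin replicate 3 it was -0.98 and passed at an adjusted p of 0.0481. It was -0.35 without bleomycin replicate 1, -0.26 without bleomycin replicate 4 (adjusted p = 0.671), -0.29 without PBS replicate 1, -0.28 without PBS replicate 3 and -0.89 without PBS replicate 4, and passed in none of these. The canonical guide strand miR-144-3p had 8.97, 9.35, 11.23 and 8.82 in R213G bleomycin lungs, against 9.91, 9.19, 10.24 and 8.46 in R213G PBS lungs. That is a difference of 0.14 (95% confidence interval -0.94 to 1.22, adjusted p = 0.84), which became -0.40 without bleomycin replicate 3. The 5p strand had 9.62, 10.57, 10.94 and 9.32 in R213G bleomycin lungs, against 12.10, 11.06, 11.92 and 10.37 in R213G PBS lungs. Although these groups overlapped, miR-144-5p fell, with a difference of -1.25 ± 0.37 (SE, adjusted p = 0.01225).

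For miR-486a-5p the values were 14.50, 15.59, 16.27 and 14.69 in R213G bleomycin lungs, against 17.32, 16.43, 17.25 and 15.84 in R213G PBS lungs. The only overlap came from bleomycin replicate 3, which exceeded PBS replicate 4. The difference was -1.45 ± 0.38 (SE, adjusted p = 0.00645). The 3p strand of miR-486a had 7.09, 8.01, 8.23 and 7.21 in R213G bleomycin lungs, against 9.95, 8.84, 9.70 and 8.51 in R213G PBS lungs, and fell, with a difference of -1.61 ± 0.34 (SE, adjusted p = 0.00164) and no overlap. The copies differed by -1.44 (miR-486b-5p, adjusted p = 0.00653) and -1.70 (miR-486b-3p, adjusted p = 0.00204). Only the 2 scarce 3p strands did not overlap between the groups, against 17.4% of tested miRNAs that were lower without overlap. The authors' parametric test gives an unadjusted p-value under 0.05 for 4 members here and a q-value under 0.05 for 0, the lowest being 0.0716. By the authors' Wilcoxon test only the 2 scarce 3p strands were under 0.05, each at an unadjusted p of 0.0286. The lowest q-value of that test was 0.109.

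The column names carry tag numbers, which form an unbroken series in R213G mice. For a comparison this series was cut into a lower and a higher run of 4, although the tags show no gap there. Each run holds 2 bleomycin and 2 PBS libraries. What the tags stand for is not described. In R213G PBS mice, replicates 1 and 3 of the lower run were above replicates 2 and 4 for all 7 members. Within the lower run the bleomycin minus PBS difference was -0.81 for miR-451a, -1.73 for miR-144-5p and -1.90 for miR-486a-5p, and within the higher run it was -0.24, -0.77 and -0.99. For miR-144-3p it was 0.022 and 0.26. With the run as a term among the 8 R213G libraries, the number of members called stayed at 5. In WT mice bleomycin and PBS libraries have separate tag numbers, so tag number and treatment cannot be told apart there.

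**Figure D2:**
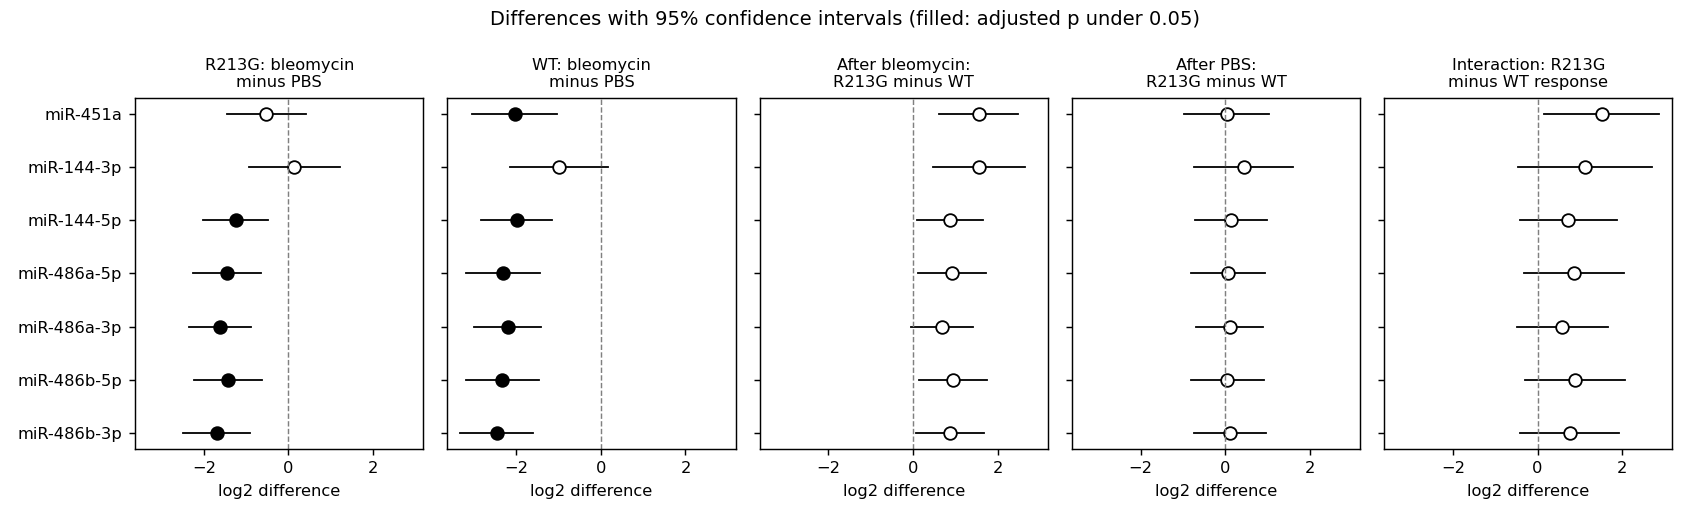
Log2 difference (x axis) of each member (y axis) with its 95% confidence interval in the 5 contrasts, filled where the adjusted p was under 0.05. All 7 estimates after bleomycin lie above 0 for R213G minus WT, from 0.69 to 1.56, and none is filled.

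R213G against WT after bleomycin asks whether the variant goes with another level of red cell miRNAs in the injured lung. All 7 members were higher in the R213G group on average, by 0.69 to 1.56 log2, and 0 of 7 passed, as did 0% of the 818 tested miRNAs. Without adjustment 6 of the 7 had a p under 0.05, which 11.9% of all tested miRNAs had. By the authors' parametric test and by their Wilcoxon test alike, 1 of the 7, miR-451a, had an unadjusted p-value under 0.05. By either test 0 had a q-value under 0.05. For miR-451a the 4 R213G bleomycin libraries, from 13.91 to 16.08, lay above the 4 WT bleomycin libraries, from 12.81 to 13.54. The difference was 1.55 (95% confidence interval 0.62 to 2.47, adjusted p = 0.232), which ranked 8 of 818 by p, and 3.06% of tested miRNAs were higher without overlap. For miR-144-3p it was 1.56 (0.48 to 2.63, adjusted p = 0.321), and the groups overlapped through WT bleomycin replicate 2. For miR-486a-5p it was 0.92 (0.12 to 1.73, adjusted p = 0.387). Without R213G bleomycin replicate 3 the differences were 1.09 for miR-451a, 1.01 for miR-144-3p and 0.59 for miR-486a-5p. All R213G libraries have lower tag numbers than all WT libraries, so tag number and genotype cannot be told apart, here, after PBS or, where tag number also goes with treatment in WT, in the interaction.

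After PBS the R213G and WT lungs had close means, with wide intervals. The level of miR-451a averaged 15.22 ± 0.88 (SD, n = 4) in R213G PBS lungs and 15.19 ± 0.60 (SD, n = 3) in WT PBS lungs, a difference of 0.034 (95% confidence interval -0.97 to 1.04). The level of miR-486a-5p averaged 16.71 ± 0.70 (SD, n = 4) in R213G PBS lungs and 16.65 ± 0.66 (SD, n = 3) in WT PBS lungs, a difference of 0.057 (-0.81 to 0.93). Differences of the other members lay between 0.048 and 0.43, and 0 of 7 passed (0% of all tested, with 5.38% at an unadjusted p under 0.05 and 0 of the 7 members among them).

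The interaction term, the R213G response to bleomycin minus the WT response, tests whether the genotypes responded differently. It was positive for all 7 members, from 0.58 for miR-486a-3p to 1.51 for miR-451a, and 0 of 7 passed (0% of all tested). The interval for miR-451a was 0.15 to 2.88 (unadjusted p = 0.0319, adjusted p = 0.601), and those of the other 6 included 0. With 1 library left out at a time the term ranged from 1.05 (without R213G bleomycin replicate 3) to 1.81 for miR-451a, from 0.58 (without R213G bleomycin replicate 3) to 1.501 for miR-144-3p, and from 0.23 (without WT PBS replicate 3) to 0.92 for miR-486a-3p, and was between 0.40 and 1.19 for the other 4 members. At an unadjusted p under 0.05 stood 7.95% of all tested miRNAs. The median interval reached 0.70 log2 either side over all tested miRNAs. The interaction and the comparison after bleomycin share the same bleomycin libraries.

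Levels of the erythroid miRNAs varied more between libraries of a group than those of most miRNAs as abundant. The SD within groups was 0.75 log2 for miR-451a and 0.87 for miR-144-3p, ranked 3 and 1 of the 287 tested miRNAs with a mean above 8, whose median was 0.18. For miR-144-5p it was 0.62 and for miR-486a-5p 0.65. For miR-451a the SD was 0.97 in R213G bleomycin lungs (n = 4), where replicate 3 lay above the other 3, 0.88 in R213G PBS lungs (n = 4), 0.30 in WT bleomycin lungs (n = 4) and 0.60 in WT PBS lungs (n = 3).

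Within a group the members tended to be high or low in the same library. Replicate 3 was the highest of R213G bleomycin and of WT PBS for all 7, and replicate 4 the lowest of R213G PBS for all 7. In WT bleomycin, replicate 2 was the highest for miR-451a and miR-144-3p and replicate 1 for the other 5. Likeness was taken as the mean absolute difference, over the 15 libraries, between the deviations of 2 miRNAs from their group means, so that a smaller value means more alike. The miRNA most like miR-451a of 817 was miR-144-3p, at 0.17 log2, and the next were miR-486a-5p, miR-144-5p, miR-486b-5p and miR-486b-3p, at 0.20 to 0.23. The other member, miR-486a-3p, came 6th at 0.24, and the nearest miRNA outside the members was miR-196b-5p at 0.33, against a median of 0.56. For miR-486a-5p the nearest after its own copies and strands was miR-144-5p at 0.16, then miR-451a at 0.20 and miR-369-5p at 0.28, whereas miR-144-3p was at 0.32. These distances are descriptions, and miRNAs of one library share its scaling.

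**Figure D3:**
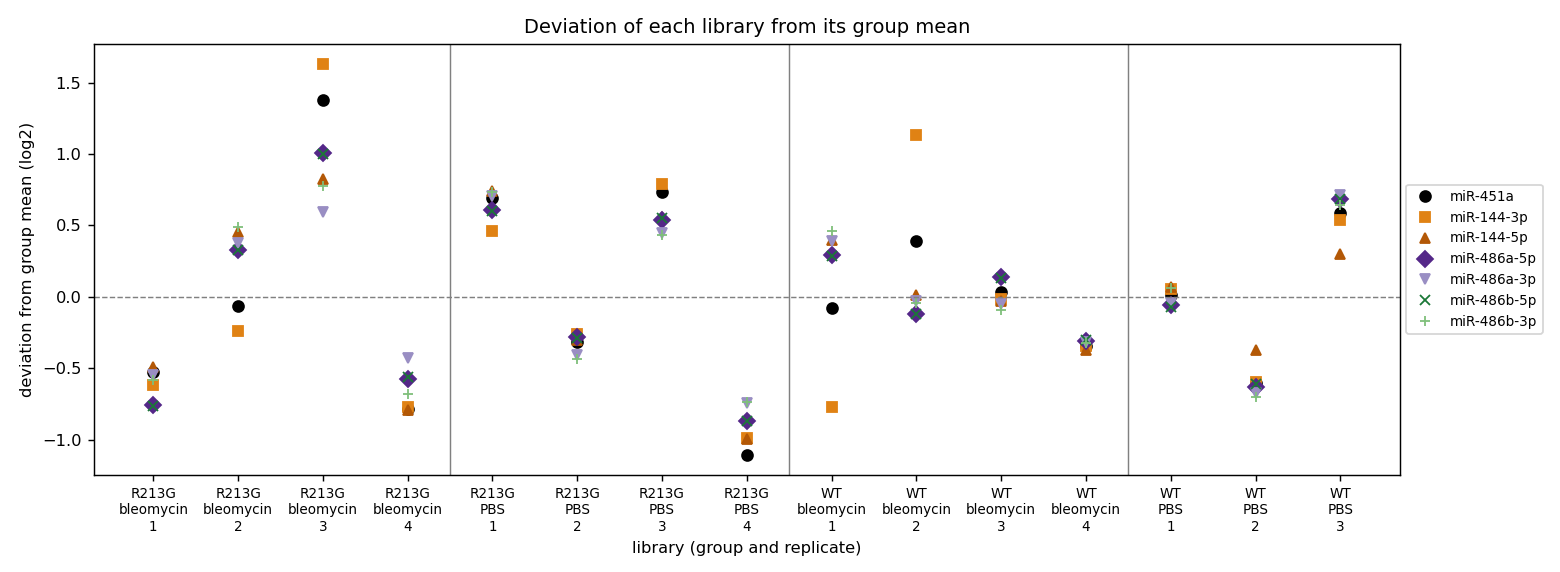
Deviation of each library from its group mean (y axis, log2) for the 7 members (symbols) in the 15 libraries (x axis, vertical lines between groups). Symbols of a library mostly lie together, and spread apart in WT bleomycin replicates 1 and 2 and R213G bleomycin replicate 3, where miR-144-3p is farthest from the others.

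A log2 difference between 2 miRNAs of the same library does not depend on how libraries were scaled, and shows whether the members changed by the same factor. The arms of miR-144 come from 1 hairpin, and the 5p arm was the more abundant in all libraries but 1. The 5p strand exceeded the 3p strand by 0.65, 1.21, -0.29 and 0.50 in R213G bleomycin replicates 1 to 4, against 2.19, 1.87, 1.68 and 1.90 in R213G PBS replicates 1 to 4. In WT the excess was 2.37, 0.085, 1.20 and 1.18 in bleomycin replicates 1 to 4, against 2.22, 2.43 and 1.97 in PBS replicates 1 to 3. The R213G groups did not overlap and the WT groups did, through WT bleomycin replicate 1. The shift was -1.39 in R213G (exact permutation test, two-sided, p = 0.0286, the smallest that 4 against 4 libraries allow) and -1.0 in WT (exact p = 0.114). Adjusted over the 24 tests of 6 differences in 4 comparisons, 0 of the 24 passed, with the lowest adjusted p at 0.171, and 4 had an unadjusted exact p under 0.05.

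A test over both genotypes, permuting libraries within each genotype, was added after these values were seen. It gave a mean shift of -1.20 for miR-144-5p minus miR-144-3p (exact permutation p = 0.00327, adjusted over 12 such tests p = 0.0147). With each library left out in turn the shift stayed between -1.39 and -1.01. Relative to miR-451a, the neighbour in the same cluster, miR-144-3p shifted up by 0.86 (exact p = 0.000816, adjusted p = 0.0098). It stood at -5.11 ± 0.19 (SD, n = 4) in R213G bleomycin lungs and -5.77 ± 0.16 (SD, n = 4) in R213G PBS lungs, and at -5.11 ± 0.59 (SD, n = 4) in WT bleomycin lungs and -6.17 ± 0.046 (SD, n = 3) in WT PBS lungs, with no overlap in either genotype. Relative to miR-451a, miR-486a-5p shifted down by -0.60 (exact p = 0.00367, adjusted p = 0.0147). That shift was -0.92 in R213G (exact p = 0.0286), without overlap, and -0.28 in WT (exact p = 0.257), where the groups overlapped. In R213G the excess was 0.57 ± 0.36 (SD, n = 4) after bleomycin and 1.49 ± 0.19 (SD, n = 4) after PBS. In WT it was 1.19 ± 0.37 (SD, n = 4) after bleomycin and 1.47 ± 0.087 (SD, n = 3) after PBS. Whether these shifts differ between genotypes was not tested.

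**Figure D4:**
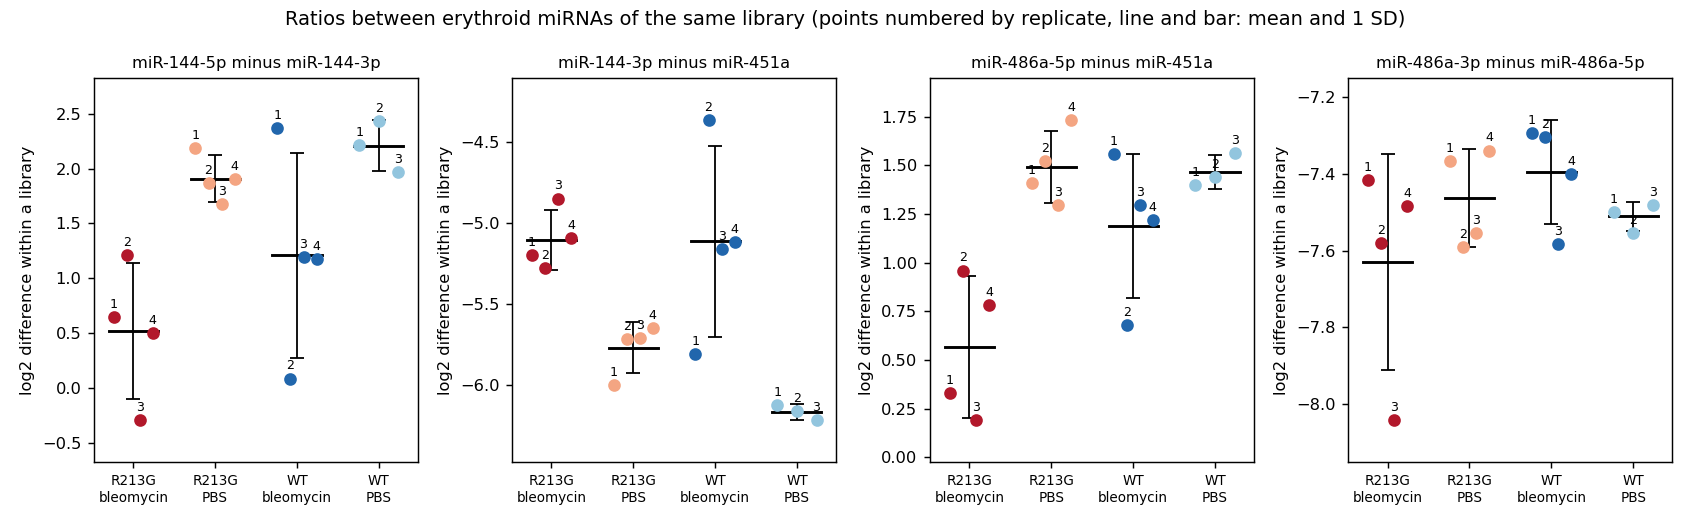
Log2 difference between 2 members of the same library (y axis, each panel with its own range) in the 4 groups (x axis). Points carry the replicate number, and line and bar are the mean and 1 SD. The miR-144-3p minus miR-451a panel shows the bleomycin libraries above the PBS libraries within each genotype.

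The strands of miR-486 kept their ratio more closely. The miR-486a-3p minus miR-486a-5p difference averaged -7.63 ± 0.28 (SD, n = 4) in R213G bleomycin lungs and -7.46 ± 0.13 (SD, n = 4) in R213G PBS lungs, and -7.39 ± 0.13 (SD, n = 4) in WT bleomycin lungs and -7.51 ± 0.038 (SD, n = 3) in WT PBS lungs. The shift with bleomycin was -0.17 in R213G (exact permutation p = 0.4) and 0.12 in WT (exact p = 0.229). Over both genotypes these shifts of opposite sign averaged -0.026 (exact permutation p = 0.824). Between the copies, miR-486b-3p minus miR-486a-3p shifted by -0.17 (exact p = 0.0143, adjusted p = 0.0429), a difference between near-identical sequences whose reads are uncertain. For R213G against WT over both treatments, 0 of the 6 differences passed, the lowest unadjusted exact p being 0.0906. With 1 library left out, the unadjusted exact p ranged from 0.0131 to 0.256 for miR-144-5p minus miR-144-3p. It ranged from 0.0155 to 0.588 for miR-144-3p minus miR-451a and from 0.0471 to 0.170 for miR-486a-5p minus miR-451a. For miR-486b-3p minus miR-486a-3p it ranged from 0.0261 to 0.262, and for the other differences it stayed above 0.05.

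Other miRNAs that are abundant in red cells but also made elsewhere were called in both directions. In R213G, 2 of the 9 were called higher, where 22.2% of all tested miRNAs were, 2 lower, where 19.8% were, and 5 in neither direction. In WT, 1 was called higher, where 16.4% of all tested miRNAs were, 0 lower and 8 in neither direction. With equal library medians or quantile normalization 1 was called lower in WT. The median log2 differences were 0.076 in R213G and 0.025 in WT. They became -0.058 and -0.091 with equal library medians, and 0.108 and 0.165 with quantile normalization. In R213G miR-92a-3p fell, at -0.62, and miR-15b-5p rose by 0.52. In WT miR-363-3p rose by 0.66, and the value of miR-15b-5p was 0.35 (adjusted p = 0.0752). Their summed level was 2.84% to 3.70% of the equalized counts in R213G bleomycin lungs, 3.39% to 3.58% in R213G PBS lungs, 3.02% to 3.53% in WT bleomycin lungs and 2.81% to 3.59% in WT PBS lungs.

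Striated muscle miRNAs, listed because muscle also makes miR-486, included called falls in each genotype. In R213G 4 of the 7 tested were called lower, where 19.8% of all tested miRNAs were. In WT 2 of 7 were, where 10.3% of all tested miRNAs were. With equal library medians or quantile normalization 4 of 7 were called lower in WT, where 121 and 108 of the 818 tested were. The list medians, -0.94 in R213G and -0.98 in WT, stayed negative under each scaling. The heart and skeletal muscle miR-133a-3p fell in both, at -2.18 in R213G and -1.52 in WT, and miR-208b-3p, from a cardiac myosin gene, fell by less in both, at -0.45 in R213G and -0.56 in WT. The value of miR-1a-3p, another miRNA of heart and skeletal muscle, was -1.62 in R213G, where it fell, and -0.98 in WT (adjusted p = 0.147). The 8 listed, of which 0 were at 0 in all libraries, summed to 0.0237% to 0.0511% of the counts in R213G bleomycin lungs, 0.101% to 0.137% in R213G PBS lungs, 0.0459% to 0.0727% in WT bleomycin lungs and 0.0682% to 0.402% in WT PBS lungs. The highest was WT PBS replicate 3, which was also the highest WT PBS library for all 7 erythroid members. Without WT PBS replicate 3 all 6 WT calls among the members remained, which does not measure the part of muscle. The part of muscle in the miR-486 difference was not tested.

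Of all 818 tested miRNAs, 22.2% were called higher and 19.8% lower in R213G, and 16.4% higher and 10.3% lower in WT. These shares stand beside the counts of each list that follows. Among 6 leukocyte miRNAs, 2 were called higher and 1 lower in R213G, while 3 were called higher and 0 lower in WT. Their medians were 0.22 in R213G and 0.46 in WT. With quantile normalization 3 were higher and 0 lower in R213G. They summed to 0.703% to 0.911% of the counts in R213G bleomycin lungs, 0.750% to 0.820% in R213G PBS lungs, 0.711% to 1.02% in WT bleomycin lungs and 0.546% to 0.665% in WT PBS lungs. The myeloid miR-223-5p rose by 0.71 in R213G and 1.05 in WT, whereas the other strand, miR-223-3p, stood at -0.18 in R213G (adjusted p = 0.356) and 0.25 in WT (adjusted p = 0.282). The pan-leukocyte miR-142a-3p rose by 0.85 in R213G and 1.20 in WT, and the lymphocyte miR-150-5p fell in R213G, at -0.69. Endothelial miR-126a-3p fell in R213G, at -0.41, and miR-126a-5p stood at 0.15, with neither called in WT, where they stood at -0.13 and 0.26. With quantile normalization neither was called in R213G, and with equal library medians 1 was called lower there. Among 5 epithelial miRNAs, 3 were called lower in R213G, including miR-429-3p at -0.49 and miR-200b-3p at -0.43, and 1 was called lower in WT, miR-200c-3p at -0.38, with miR-200a-3p at -0.30 (adjusted p = 0.175). The epithelial medians were -0.39 in R213G and -0.14 in WT. With quantile normalization they were -0.23, with 1 called lower and 1 higher, and 0.0041, with 1 called lower. With equal library medians they were -0.52, with 4 called lower, and -0.26, with 1 called lower. Of 2 smooth muscle miRNAs, miR-143-3p fell in R213G, at -0.32, and miR-145a-5p in WT, at -0.52. Meanwhile miR-145a-5p stood at -0.041 in R213G and miR-143-3p at -0.27 in WT. With quantile normalization 0 were called in either genotype, and with equal library medians 1 was called lower in R213G and 2 in WT. Liver miR-122-5p stood at -1.24 in R213G and 0.46 in WT, called in neither.

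**Figure D5:**
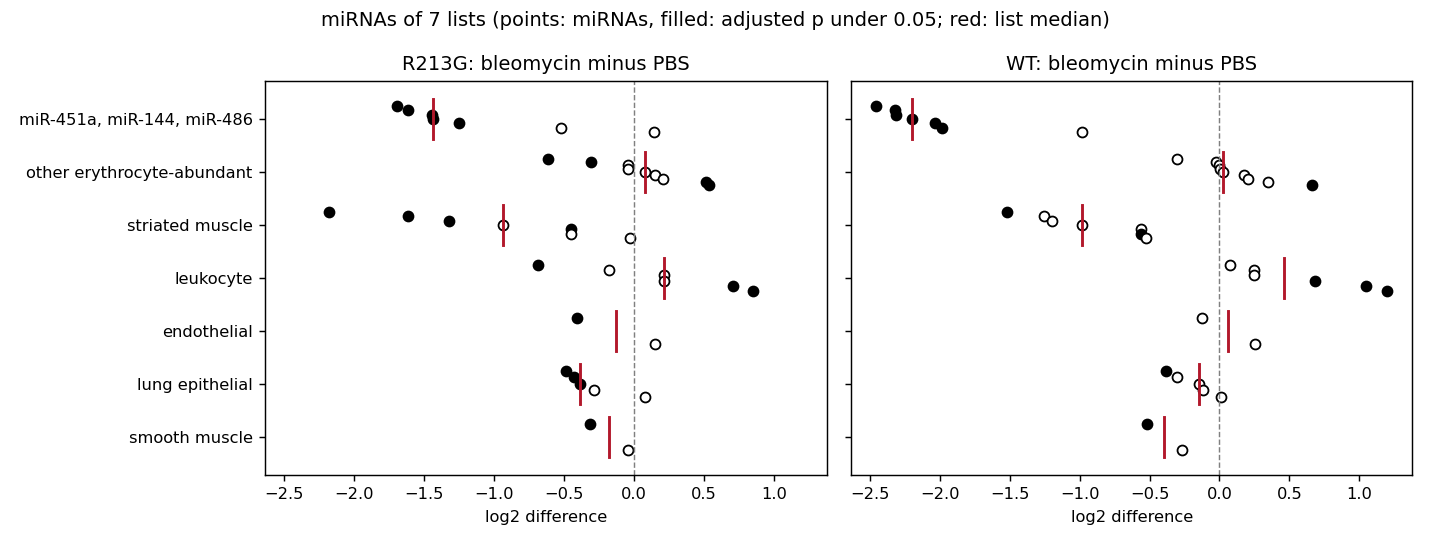
Log2 difference, bleomycin minus PBS (x axis), of the members and of 6 other miRNA lists (y axis) in R213G (left) and WT (right) lungs. Points are miRNAs, filled where the adjusted p was under 0.05, and red lines are list medians. The medians of the 7 members, each miR-486 copy counted as a member, lie at -1.44 and -2.20, and the medians of other red-cell-abundant miRNAs near 0.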

How the data were processed

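Small RNA libraries of 15 lungs were analysed from 1 deposited table. The authors deposited log2 values per library and mature miRNA, and the submitters' processing notes name Bowtie2 2.3.2, SAMtools 1.9 and edgeR. No source used here names the genome build or miRBase release. From the values, the unit was taken as log2 of 1 plus a library-equalized count. The authors also deposited p-values and q-values of their own Welch and Wilcoxon tests, and fold changes on the log2 scale. The equalized values hold no raw counts, so the planned count test was not run and no counting interval was computed.

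The log2 values were fitted with limma 3.58.1 (R 4.3.3), allowing the variance to depend on abundance, with a mean for each of the 4 groups. Benjamini-Hochberg adjustment ran over the 818 tested miRNAs of each of 5 contrasts. The fit was tested on simulated data. Differences within a library were compared by exact permutation tests (numpy 2.4.6). Named miRNAs were the 7 members, the 2 with the smallest p of each list per bleomycin contrast, and the nearest neighbours of miR-451a and miR-486a-5p. Members and lists were chosen with earlier results of these data known.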

Additional observations from a re-analysis of the deposited data

Results flagged for a closer look

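Of 39 sets of 4 libraries examined for a value far from the others, 21 for members and 18 for differences within a library, 1 had one, and chance gives about 1 in 20. It was miR-486b-5p minus miR-486a-5p in R213G bleomycin replicate 4, whose gap to its neighbour was 0.8349 of the range of the group (critical value 0.829). That replicate differed by 0.019 log2, and the other 3 by 0.00040 to 0.0034.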

How the results depend on the processing

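Member counts were recomputed under 27 settings. They stayed within 1.5 times of the main count in all but 1. With the miR-486 copies summed, a setting chosen after seeing the data, 3 of 5 rows were called in R213G, because fewer rows remain. Counts with a replicate block were 5 in R213G, 6 in WT and 0 in the other 3 contrasts, so the block changed no count. Whether replicate numbers pair libraries was not decided. Same-number deviations correlated between -0.145 and 0.262, with 9 of 21 above 0.1. Of 42 best matches, 17 had the same number, and no chance level was computed. Equal library medians moved the median tested miRNA by -0.13 in R213G and -0.12 in WT. Unfiltered, the bleomycin calls were the same in number.

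Where differences near 0 changed sign, they were called under neither setting. For miR-144-3p in R213G the value was -0.049 with array weights, and -0.40 to 0.40 with 1 library left out. For R213G against WT after PBS, leaving out 1 library gave -0.11 to 0.47 for miR-144-5p, -0.27 to 0.40 for miR-451a, -0.26 to 0.40 for miR-486a-5p, -0.23 to 0.46 for miR-486a-3p, -0.26 to 0.39 for miR-486b-5p and -0.24 to 0.43 for miR-486b-3p, and quantile normalization gave -0.0027 for miR-486b-5p. The miR-144-3p minus miR-451a shift, R213G against WT after bleomycin, was -0.0063 with a pseudocount of 5 and -0.22 to 0.26 with 1 library left out. With 1 library left out, miR-486a-5p minus miR-451a after PBS ranged from -0.058 to 0.087. The miR-486a-3p minus miR-486a-5p shift with bleomycin ranged from -0.062 to 0.042. The miR-486b-3p minus miR-486a-3p shift ranged from -0.032 to 0.059 after PBS and from -0.14 to 0.0031 in R213G. The miR-486b-5p minus miR-486a-5p shift ranged from -0.019 to 0.00040 after PBS, -0.0047 to 0.0047 between genotypes over both treatments, -0.017 to 0.0016 in WT and -0.0035 to 0.0059 over both genotypes. The cause was not tested. Groups of 3 and 4 limit the precision.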
